A study of Mus musculus with 6 samples.

Results

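Thioredoxin, glutaredoxin and glutathione enzymes were followed in murine pre-B cells 2 h after ionizing radiation (IR). The genes were chosen by name: Txn1, Txnrd1, Txnip, Glrx, Gclc, Gclm, Gsr, Srxn1, Prdx1 and Slc7a11, 10 genes in all. Of these, 9 had a probe set of their own on the array, and 7 reached a signal of 100 on at least 1 array and were tested, among 9678 genes tested in all. Prdx1 has no value here, since its 5 probe sets are annotated to a second gene as well and were left unnamed. The arrays compared 3 v-Abl-transformed WT pre-B cell lines, each as a mock-irradiated culture (0 Gy) and as a culture given 1 Gy of γ-rays at 0.72 Gy/min from a cesium source. All 6 cultures carried an Eμ-Bcl2 transgene, which drives the survival factor Bcl2 in B lineage cells, and had been held in 3 μM STI-571 (imatinib), an inhibitor of the Abl kinase, for 48 h, which blocks the G1-to-S transition. The results therefore hold for transformed, drug-arrested cells with a survival transgene and not for pre-B cells in an animal. The medium also held beta-mercaptoethanol, a thiol reductant, for both doses.

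Cells keep protein thiols reduced through a pair of parallel electron chains that both start from NADPH. In one, thioredoxin reductase (Txnrd1) reduces thioredoxin (Txn1), which reduces peroxiredoxins, ribonucleotide reductase and other proteins. In the other, glutathione reductase (Gsr) keeps glutathione reduced, and glutaredoxin (Glrx) uses glutathione to reverse the glutathionylation of proteins. Glutathione itself is made from cysteine, which many cells obtain by importing cystine through Slc7a11, and the first step of its synthesis is carried out by the catalytic Gclc and modifier Gclm subunits. Several of these genes are known targets of the transcription factor Nrf2 (Nfe2l2), which binds antioxidant response elements together with small Maf proteins.

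The promoters of 8 of the 10 genes were in the table of RefSeq sequences used here (GRCm38, 250 bases before to 50 after each start). Those of Gclc and Gsr were not in it. The core of the antioxidant response element, TGACNNNGC on either strand, was found in Gclm, Prdx1, Srxn1 and 1 of 3 Txnrd1 starts, and in 12.4% of all 32851 promoters of that length. The AP-1 element TGACTCA on either strand was found in Glrx, Prdx1 and Srxn1, and in 5.2% of all promoters. One Prdx1 match of the AP-1 element overlaps its match of the response element core. The E-box CACGTG was found in none of the 8 genes and in 7.15% of all promoters. Only these exact letters were searched, so that imperfect E-boxes were not counted. The windows below, each of 60 bases on the plus strand, show the match in capitals. They are those of Glrx and Txnrd1, the members with the largest fitted changes, and of Gclm, the only subunit gene that could be searched. They lie at chr13:75839762-75839821, chr10:82859089-82859148 and chr3:122245398-122245457. A match describes these letters and is no evidence that a factor was bound.
Glrx, AP-1 element: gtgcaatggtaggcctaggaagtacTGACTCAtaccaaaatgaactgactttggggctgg
Txnrd1, response element core: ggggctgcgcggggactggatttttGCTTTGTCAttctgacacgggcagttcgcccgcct
Gclm, response element core: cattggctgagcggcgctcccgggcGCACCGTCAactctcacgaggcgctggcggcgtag

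The cells were checked against their label. All 11 pre-B markers with a probe set reached 100 on every array, with a summed signal of 143559 to 149905 in mock-treated and 118136 to 160528 in irradiated cells. By each gene's brightest probe set, limma called 2 of the 11 lower, the recombinase genes Rag1 (from a mean of 16771 to 4902, adjusted p = 0.0188) and Rag2 (1509 to 283, adjusted p = 0.0185). Both fell in every line. So did Cd79a, which was not called (3970 to 2840, limma adjusted p = 0.624, or 0.0687 with the cell line as a block). Pax5 and Vpreb1 went the other way in every line and were not called either. Pax5 read 2271 and 3358 (limma adjusted p = 0.449, or 0.0522 with the block). Vpreb1 read 13597 and 15691 (limma adjusted p = 0.752, or 0.294 with the block). None of the markers of T (7 genes), erythroid (3 genes) or stromal cells (5 genes) reached 100 on any array. Of 6 myeloid markers only Itgam did by this measure, at a mean signal of 152 and 279 (limma adjusted p = 0.0680, or 0.0227 with the block). The sum of the list was 246 to 320 at 0 Gy and 371 to 469 at 1 Gy, with the defining genes Lyz2 and Cd14 below 100 throughout. The brightest of 3 Csf1r probe sets also stayed below 100, and another read 117 on 1 mock array. Of 5 plasma cell markers only Irf4 rose (10379 to 20861, adjusted p = 0.0289), and it carried the increase of their sum from 15636 to 17177 at 0 Gy to 23226 to 25774 at 1 Gy. Xbp1 (4852 to 2851, adjusted p = 0.0767, or 0.0443 with the block), Sdc1 (305 to 190, adjusted p = 0.269, or 0.0461 with the block) and Jchain, which stayed below 100, had less signal in every line. Prdm1 had 797 and 921 (adjusted p = 0.762, or 0.259 with the block). Their part in the results below was not tested. RNA quality was read from the β-actin control, whose 3′ signal over its 5′ signal was 1.45 ± 0.0510 (SD, n = 3) at 0 Gy and 1.32 ± 0.0566 at 1 Gy, where an exact permutation test gave p = 0.1, the smallest value 3 against 3 arrays allow. The same ratio of the Gapdh control was 0.820 ± 0.0705 at 0 Gy and 0.793 ± 0.00768 at 1 Gy (exact permutation p = 0.9). The part of RNA quality in the results was not tested either.

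Following IR exposure Glrx fell in all 3 lines, and it was the only one of the 7 tested genes to pass the test. No member rose in the limma fit, where 2 of the 7 had an unadjusted p under 0.05 (Glrx and Txnrd1), and the methods' test (the study's 2-group test, run here on the same values and called at an unadjusted p of at most 0.05 and at least 1.5-fold) counted Txnrd1 as higher and Glrx as lower. Over all genes 25.1% had an unadjusted p under 0.05 without the block and 40.4% with it, and the methods' test counted 4.73% higher and 9.64% lower, shares against which the counts of this kind given for each list below should be read. For all 9678 genes the same fit called 2.12% higher and 3.23% lower, so that 1 of 7 lower and 0 of 7 higher rests on too few genes to set against the background. With the cell line as a block the members' calls were again 1 lower and 0 higher, where 6.62% of all genes were higher and 14.7% lower. In that fit 3 of the 7 had an unadjusted p under 0.05, with Gclc besides Glrx and Txnrd1. The groups did not overlap for Txnrd1 and Gclc, where all irradiated arrays were above all mock arrays (12.4% of all genes), and for Glrx, where all were below (20.5% of all genes). The median log2 fold change was -0.23 over the 7 members and -0.11 over all genes. In these bulk samples fewer cells of a type and less RNA per cell cannot be told apart.

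**Figure D1:**
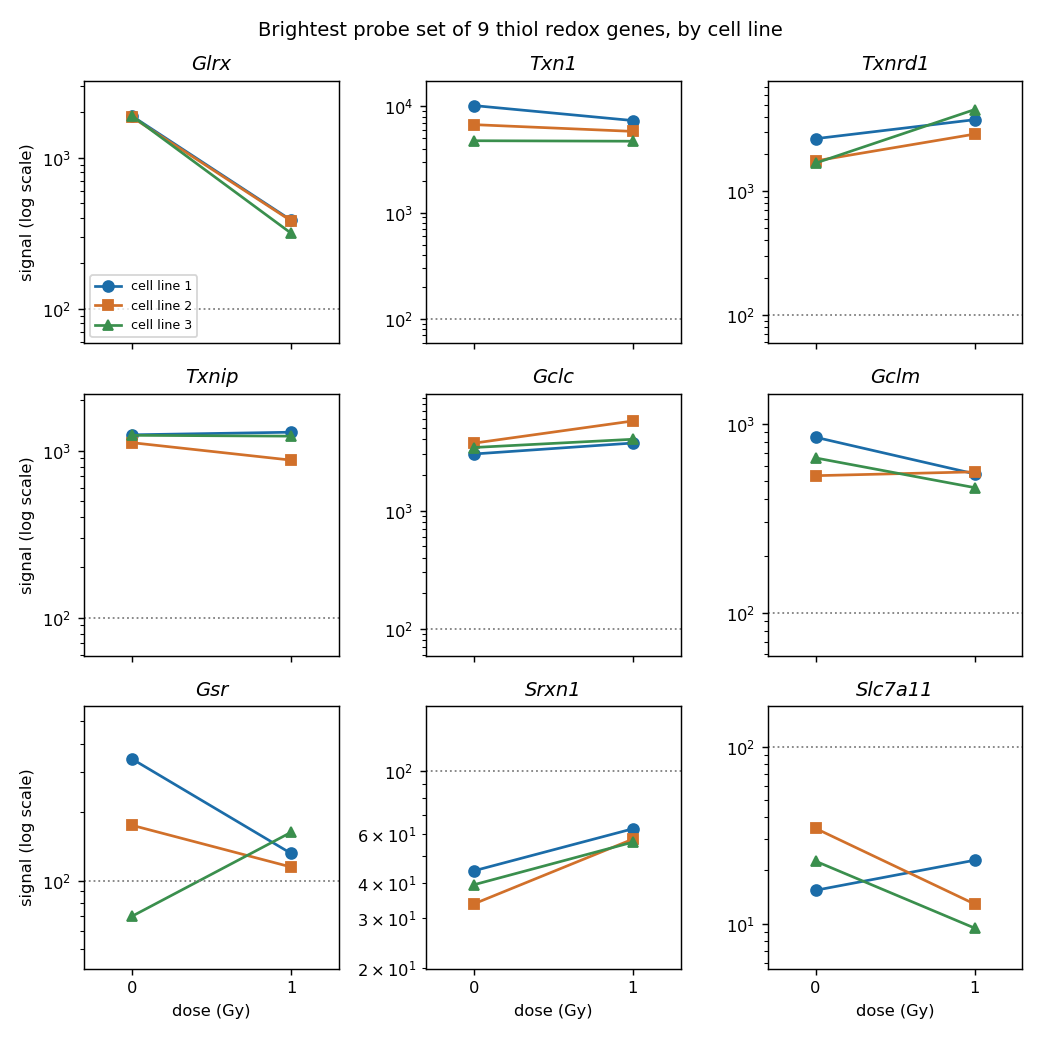
Array signal (log axis, a separate scale in each panel) of the brightest probe set of 9 genes at 0 and 1 Gy, with 1 line per cell line and the minimum of 100 dotted. Glrx fell from 1863 to 1899 down to 317 to 386 in every line, Txnrd1 and Gclc did not overlap between doses, and Srxn1 and Slc7a11 stayed below 100 on all arrays.

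Glrx, the cytosolic glutaredoxin, had signals of 1895, 1863 and 1899 in the mock-treated lines 1, 2 and 3 and of 386, 382 and 317 after 1 Gy (probe set 1416592_at). The mock arrays lay within a narrow band, and every irradiated array lay far below it. The fall was 5.23-fold, a log2 fold change of -2.39 with an SE of 0.14 and a 95% interval of -2.73 to -2.05 (limma adjusted p = 0.00827, or 0.00939 with the line as a block). The 3 lines fell by 2.29, 2.28 and 2.58 on the log2 scale. A second Glrx probe set (1416593_at) read 915, 963 and 1015 before and 141, 176 and 183 after IR, a log2 fold change of -2.54 with an SE of 0.16 (adjusted p = 0.00881). Both probe sets thus moved in the same direction in every line. Among the 9678 genes, 28 fell further than Glrx and 3 had a smaller p in the fit without the block. In the fit with the block Glrx had rank 23 by p.

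The call of Glrx was lost when some of the arrays were left out, whereas the size of its fall changed little. Without the mock array of line 2 the adjusted p was 0.0554, and without the irradiated array of line 1 or of line 2 it was 0.0590 and 0.0552. Without both arrays of line 1, 2 or 3 it was 0.205, 0.240 and 0.0980. It was kept when the mock array of line 1 or 3 or the irradiated array of line 3 was left out. Over all settings with arrays left out the log2 fold change stayed between -2.44 and -2.29.

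Dose accounted for 99.4% of the sum of squares of the log2 signal of Glrx over the 6 arrays and the cell line for 0.274%. Over all genes the median shares were 32.9% for dose and 45.2% for the line. The share is a description of these arrays and carries no test. The 3 genes whose log2 signals, each centred on its own mean, tracked Glrx most closely over the 6 arrays were Ccdc69, Rgs14 and Bst1, with root mean square differences of 0.110, 0.174 and 0.176. Ccdc69 fell from a mean signal of 713 to 146. Rgs14, a regulator of G protein signalling, fell from 1302 to 240. Bst1, an ectoenzyme of the CD38 family that marks B cell precursors, fell from 4713 to 1048. Each of the 3 had a limma adjusted p between 0.00827 and 0.0138. They were picked for their likeness from all genes tested, so that their agreement with Glrx is a description.

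None of the 3 other glutaredoxins tested passed limma, of which 1 (Glrx3) had an unadjusted p under 0.05, and the methods' test counted none. Glrx2, a glutaredoxin found in mitochondria, had a mean signal of 1854 ± 107 in mock-treated and 1587 ± 163 in irradiated cells (SD, n = 3), with a log2 fold change of -0.23 and a limma adjusted p of 0.401. Glrx5, which takes part in iron-sulfur cluster transfer in mitochondria, read 4292 ± 518 and 3431 ± 259 (log2 fold change -0.32, limma adjusted p = 0.276). Glrx3, a cytosolic iron-sulfur carrier, read 140 ± 39.3 and 224 ± 55.9 (log2 fold change 0.68, limma adjusted p = 0.212), from the only one of its probe sets that is not shared with another symbol. None passed with the block either, and the 95% intervals reached from -0.57 to 0.12 for Glrx2, from -0.69 to 0.05 for Glrx5 and from 0.0095 to 1.35 for Glrx3. All 3 intervals lie above that of Glrx. Glrx2 and Glrx5 were nevertheless lower in every line without overlap of the groups, as were 20.5% of all genes. Glrx3 was higher in every line, and its groups overlapped. The difference between the family members was not tested.

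In the thioredoxin arm, Txnrd1, the cytosolic thioredoxin reductase, read 2653, 1754 and 1683 in the mock-treated lines 1, 2 and 3 and 3777, 2889 and 4560 after 1 Gy (probe set 1421529_a_at). Every line had more signal after IR, by 0.51, 0.72 and 1.44 on the log2 scale, and the groups did not overlap. The log2 fold change was 0.89 with an SE of 0.26 and a 95% interval of 0.25 to 1.53, and it did not pass the limma test after adjustment over all probe sets (unadjusted p = 0.0143, adjusted p = 0.116). With the line as a block the adjusted p was 0.0554, which also missed 0.05. By fold, 448 of the 9678 genes lay higher. The other 2 Txnrd1 probe sets stayed below 100 on all arrays and were not tested.

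Txn1, the cytosolic thioredoxin that Txnrd1 reduces, had signals of 10151, 6715 and 4737 at 0 Gy and 7334, 5801 and 4689 at 1 Gy. The order of the lines was the same at both doses, with line 1 highest and line 3 lowest, and the cell line held 85.2% of the sum of squares against 8.99% for dose. The log2 fold change was -0.23, with a 95% interval of -1.03 to 0.56 (limma adjusted p = 0.729, or 0.295 with the block).

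Txnip, an arrestin-fold protein that binds and inhibits thioredoxin, read 1243, 1116 and 1235 at 0 Gy and 1289, 877 and 1221 at 1 Gy. The doses overlapped, and line 2 was the lowest at both. The log2 fold change was -0.10, with a 95% interval of -0.57 to 0.36 (limma adjusted p = 0.798), and -0.18 for the second probe set (adjusted p = 0.754). Leaving out the irradiated array of line 2 turned the sign of the brighter probe set, to 0.07.

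**Figure D2:**
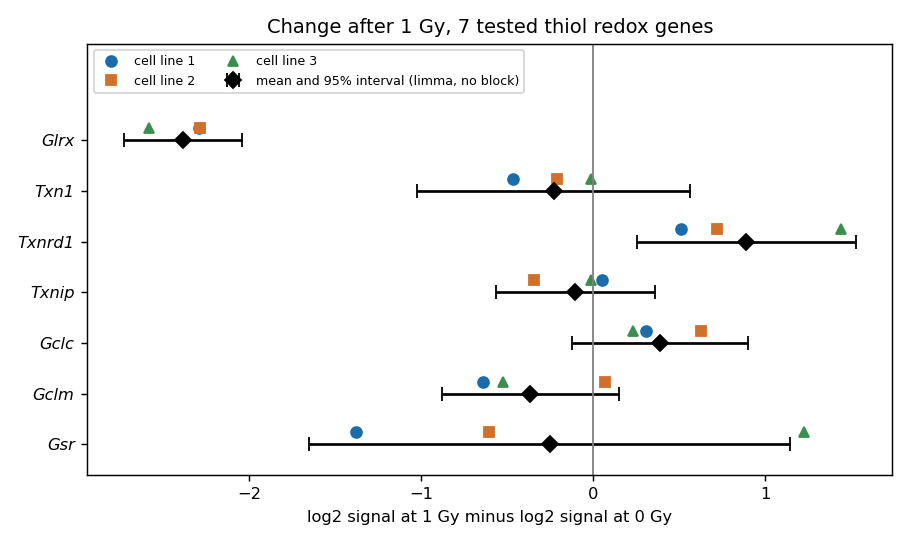
Log2 change after 1 Gy in each cell line (coloured markers) and the limma mean without the block with its 95% interval (black) for the 7 tested genes. The interval of Glrx lies between -2.73 and -2.05, that of Txnrd1 between 0.25 and 1.53, and the other 5 include 0.

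None of the members that make or reduce glutathione, Gclc, Gclm and Gsr, passed the test. Gclc, the catalytic subunit of glutamate-cysteine ligase, read 3009, 3714 and 3415 at 0 Gy and 3724, 5724 and 4009 at 1 Gy. Each line had more signal after IR and the groups just failed to overlap, with the highest mock array (3714, line 2) next to the lowest irradiated one (3724, line 1). The log2 fold change was 0.39, with a 95% interval of -0.12 to 0.90 (limma adjusted p = 0.337, or 0.116 with the block). A second Gclc probe set gave 0.26 (adjusted p = 0.491) and its groups overlapped.

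Gclm, the modifier subunit, read 848, 531 and 659 at 0 Gy and 543, 556 and 459 at 1 Gy. Lines 1 and 3 had less signal after IR and line 2 slightly more, where all 3 lines had more of Gclc, a contrast between the subunits that was not tested. The log2 fold change was -0.37, with a 95% interval of -0.88 to 0.15 (limma adjusted p = 0.367). Gsr, which reduces oxidised glutathione, was dim, at 343, 175 and 69.6 before and 132, 115 and 163 after IR. Lines 1 and 2 read lower after IR and line 3 higher, and the 95% interval of the log2 fold change ran from -1.65 to 1.15 around -0.25 (limma adjusted p = 0.843). Without the mock array of line 1 it was 0.29. The second Gsr probe set gave -0.94 (adjusted p = 0.452), with a value of 26.4 on the irradiated array of line 2.

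The remaining pair could not be tested. Srxn1, the sulfiredoxin that restores overoxidised peroxiredoxins, has 4 probe sets, none of which reached 100 on any array. The brightest read 44.2, 33.7 and 39.5 at 0 Gy and 62.4, 57.4 and 56.0 at 1 Gy, and the groups did not overlap, although all of these lie below the minimum of 100. Slc7a11, the cystine transporter, lay between 2.69 and 34.6 over its 2 probe sets and all arrays. Slc3a2, the heavy chain with which Slc7a11 pairs, was well above that minimum, at 2005 ± 571 and 2224 ± 292 (log2 fold change 0.19, limma adjusted p = 0.734). The values of Srxn1 and Slc7a11 are bounded by the sensitivity of the array and do not show that the genes were silent.

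**Figure D3:**
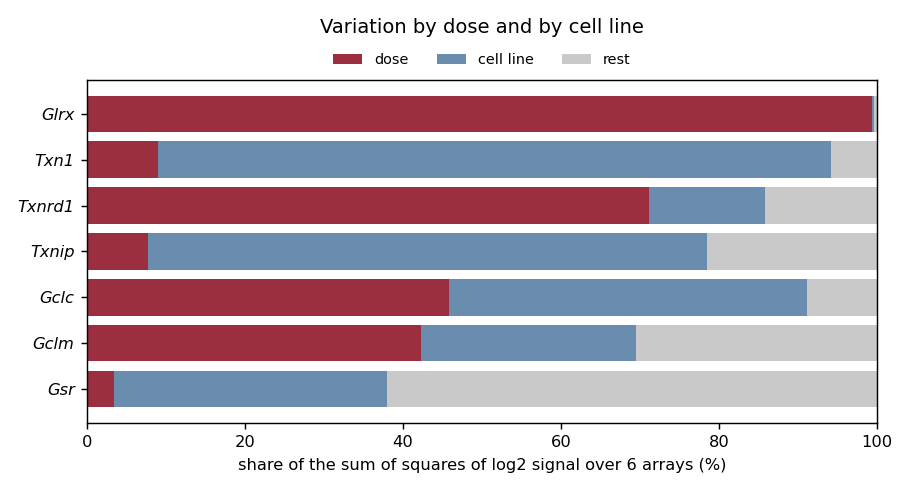
Share of the sum of squares of log2 signal over 6 arrays (%) held by dose, by cell line and by the rest, for the 7 tested genes. Dose held 99.4% for Glrx and 71.1% for Txnrd1, the line held 85.2% for Txn1 and 70.9% for Txnip, and neither held most of it for Gsr, where the rest was 62.0%.

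The members thus differed in how the variation split. Dose held 71.1% for Txnrd1, 45.8% for Gclc and 42.3% for Gclm, 8.99% for Txn1, 7.65% for Txnip and 3.36% for Gsr. The cell line held 70.9% for Txnip and 45.4% for Gclc. For Gsr most of the variation followed neither.

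Around the members, 14 lists of related genes held 179 genes, of which 136 were tested. In the fit without the block 3 of the 136 rose and 8 fell, 2.21% and 5.88%, beside 2.12% and 3.23% of all genes. With the line as a block 14 rose and 28 fell, 10.3% and 20.6%, beside 6.62% and 14.7%. The median log2 fold change was -0.22 over these genes. Scaling the arrays to a common median left 3 higher and 2 lower calls among them, and 366 higher and 274 lower probe sets over the whole array in place of 419 and 556, while quantile normalization gave 4 and 9 among the lists and 500 and 458 over the array. With arrays left out, few genes of the lists were called in place of 11. Limma called 2 without the mock array of line 1 and 1 each when line 3 lacked either of its arrays, and none in the other cases without the block. Counts at an unadjusted p under 0.05 in limma with the block are given here, beside 40.4% of all genes. The thioredoxin list had 9 of 18, glutaredoxins 1 of 3, peroxiredoxins and sestrins 5 of 6. Peroxidases and dismutases had 2 of 5, transferases 6 of 10, cystine supply 3 of 8, NADPH supply 7 of 11. Relatives of Txnip had 4 of 9, the Nrf2 list 5 of 15, selenoproteins 8 of 16. Ribonucleotide reductase had 1 of 3 and the other partners 8 of 18. Genes named below as called with the block alone were chosen after their values were seen.

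**Figure D4:**
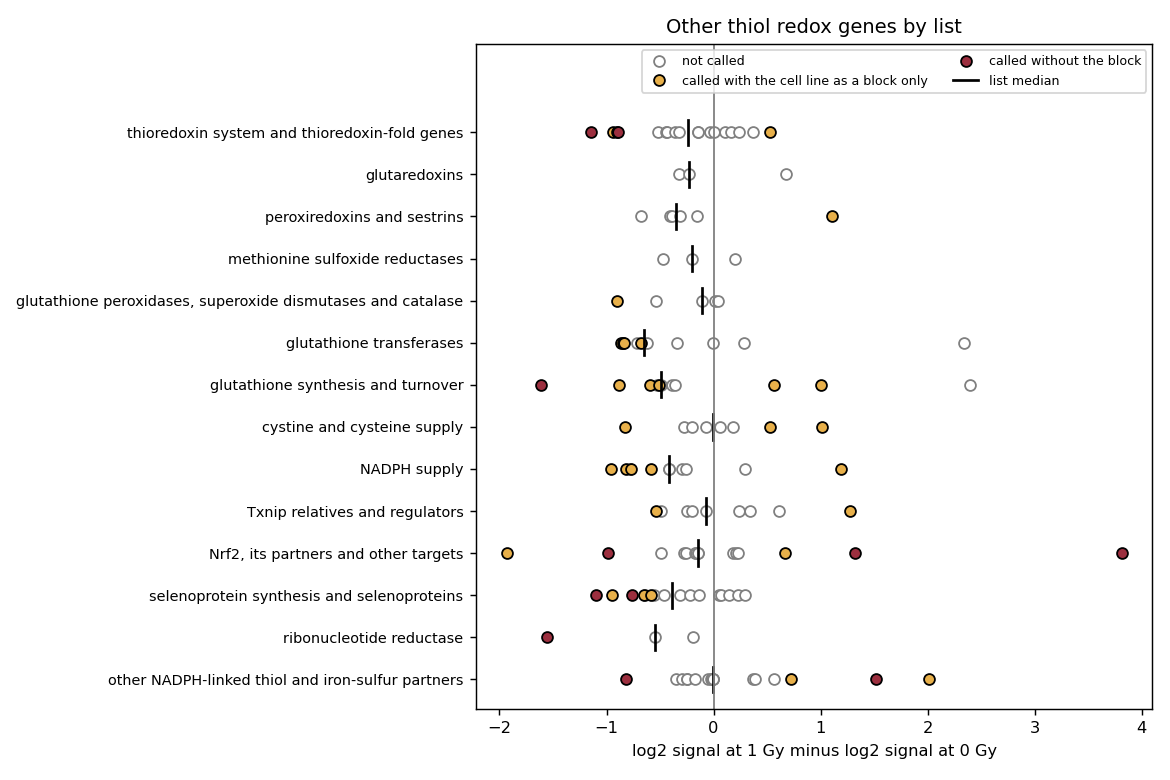
Log2 fold change of the 136 tested genes of 14 related lists, with each list's median as a bar. Filled red points passed limma without the block (3 higher, 8 lower) and orange points only with it. The median of the glutathione transferases was -0.65, and the highest red point is Maff at 3.81 (3.52 with signals under 100 set to 100).

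In the thioredoxin list 2 of 18 genes fell and none rose in limma without the block, where 5 had an unadjusted p under 0.05 and the methods' test counted 4 lower and 0 higher. Txndc11, a thioredoxin-domain protein of the endoplasmic reticulum, fell from 3117 ± 495 to 1412 ± 259 (log2 fold change -1.15, adjusted p = 0.0433), and its lines fell by 0.99, 1.22 and 1.23. Tmx4, a membrane-bound member of the same fold, fell from 2354 ± 192 to 1266 ± 93.1 (-0.89, adjusted p = 0.0332). With the block Tmx2 and Nxn fell as well and Txndc9 rose, from 3206 to 4610 (adjusted p = 0.0914 without and 0.0407 with the block). Nxn was dim, at 260, 146 and 155 at 0 Gy and 108, 77.3 and 99.1 at 1 Gy. Txnrd2, the mitochondrial counterpart of Txnrd1, read 401 ± 91.2 and 310 ± 63.2, a log2 fold change of -0.36 (adjusted p = 0.438).

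Among the peroxiredoxins, which take electrons from thioredoxin to reduce peroxides, none of the 3 measured genes passed either limma fit. Prdx2 and Prdx3 were lower without overlap, at log2 fold changes of -0.31 and -0.16 (adjusted p = 0.267 and 0.495), and Prdx4 had -0.39 (adjusted p = 0.560). The sestrin Sesn2 had 239 ± 52.4 and 509 ± 71.1 and an adjusted p of 0.05004, just above the threshold, and was the only one of the 6 tested peroxiredoxins and sestrins to pass with the block (0.0160). The other sestrins, Sesn1 and Sesn3, went the other way and were lower in every line without overlap. Their log2 fold changes were -0.68 and -0.41 (limma adjusted p = 0.0972 and 0.246, or 0.0701 and 0.0984 with the block). Of the 6 genes, 2 had an unadjusted p under 0.05 without the block, and the methods' test counted 1 higher and 1 lower. No methionine sulfoxide reductase (3 tested) passed either fit, with 0 at an unadjusted p under 0.05 without and 1 with the block and 0 in the methods' test. Of 5 peroxidases and dismutases, catalase included, none passed without the block, 2 had an unadjusted p under 0.05, and the methods' test counted none. Cat, the catalase, fell with the block (adjusted p = 0.0278). Gpx1, the major cytosolic glutathione peroxidase, read 8430 ± 836 and 5805 ± 362, a log2 fold change of -0.54 (adjusted p = 0.0933, or 0.0640 with the block). The rest of this list, Gpx4, Sod1 and Sod2, had log2 fold changes of 0.04, 0.01 and -0.11 (limma adjusted p = 0.923, 0.973 and 0.761).

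The glutathione transferases, which join glutathione to electrophiles, had a median log2 fold change of -0.65 over 10 tested genes, and of -0.60 and -0.55 with the arrays scaled to a common median or quantile normalized. None of them passed limma without the block, where 5 had an unadjusted p under 0.05 and the methods' test counted 1 lower. With the block Gstp1, Gsto1 and Mgst2 fell. Mgst1 was called lower as well, but it reached 100 on 1 mock array alone, and its log2 fold change of -0.68 became -0.048 with signals under 100 set to 100. The median of the list was then -0.48. The brightest of these probe sets was that of Gstp1, which read 4978, 5808 and 5776 at 0 Gy and 2478, 3379 and 3293 at 1 Gy. Its groups were well apart, with an adjusted p of 0.0544 without and 0.0189 with the block.

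Of 11 tested genes of glutathione synthesis and turnover, 1 fell without the block, and 2 rose and 4 fell with it. In limma 4 had an unadjusted p under 0.05 without the block and 10 with it. The methods' test counted 1 higher and 2 lower. Hagh, the glyoxalase that releases glutathione from lactoylglutathione, fell from 766, 724 and 749 to 202, 322 and 226, a 3.05-fold fall (log2 fold change -1.61, SE 0.20, limma adjusted p = 0.0239). All 3 lines fell by more than 2-fold. Those that rose with the block were Ggt5 and Chac1, an enzyme that degrades glutathione and a target of Atf4, which read 268 ± 74.7 and 529 ± 78.7 (adjusted p = 0.0769 without and 0.0367 with the block). Ggt5 was dim, at 117, 76.7 and 120 at 0 Gy and 158, 127 and 174 at 1 Gy. Besides Hagh, the block called lower Abcc4, Glo1 and Gss, the second enzyme of glutathione synthesis. Gss reached 100 on 2 mock arrays and on no irradiated one (116, 135 and 83.3 against 73.7, 81.5 and 63.0), and its log2 fold change of -0.59 became -0.21 with signals under 100 set to 100.

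Among the 8 genes of cystine and cysteine supply none passed limma without the block, where 2 had an unadjusted p under 0.05 and the methods' test counted none. With the block the amino acid transporter Slc1a5 fell, and Slc1a4, a related transporter, and Atf4, a transcription factor that drives amino acid import, rose. Slc1a4 was dim, at 133, 75.2 and 178 at 0 Gy and 278, 162 and 324 at 1 Gy. Atf4 read 5934, 5533 and 5514 at 0 Gy and 7914, 7802 and 8828 at 1 Gy (limma adjusted p = 0.0778 without and 0.0487 with the block). The median of the list was -0.0059, and it turned to 0.04 and 0.06 when the arrays were scaled to a common median or quantile normalized.

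No gene of NADPH supply (11 tested) passed limma without the block, where 4 had an unadjusted p under 0.05 and the methods' test counted 1 higher and 2 lower. With the block Idh1, Idh2, Me2 and Nnt fell and Mthfd2 rose. Idh2, the mitochondrial isocitrate dehydrogenase that makes NADPH, read 3297 ± 582 and 1693 ± 228 (adjusted p = 0.0544 and 0.0187). Mthfd2, a mitochondrial folate enzyme, read 1270 ± 461 and 2791 ± 462 (0.0902 and 0.0344). The list had a median log2 fold change of -0.42.

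Of the 9 tested relatives and regulators of Txnip none passed without the block, where 2 had an unadjusted p under 0.05 and the methods' test counted 1 higher. With the block Mlxip, a glucose-responsive transcription factor that drives Txnip, rose from 3516, 3166 and 5007 to 8902, 6369 and 13933 (limma adjusted p = 0.0928 without and 0.0151 with it). Its groups did not overlap, whereas those of Txnip did. Mlx, the partner of Mlxip, fell with the block from a mean of 860 to 597 (0.172 and 0.0443).

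In the list of Nrf2, its partners and other targets (15 tested), 2 genes rose and 1 fell without the block. In that limma fit 5 had an unadjusted p under 0.05, and the methods' test counted 3 higher and 2 lower. Maff, a small Maf protein that can pair with Nrf2, rose from 107, 71.6 and 76.2 to 1143, 1566 and 909 (limma adjusted p = 0.00957). The mock signals of lines 2 and 3 lie below 100, and with these set to 100 the lines rose by at least 3.41, 3.97 and 3.18 on the log2 scale. Sqstm1, which binds Keap1 and leads it to degradation, rose in the lines by 1.44, 1.19 and 1.33 (adjusted p = 0.0344). Keap1, the adaptor that targets Nrf2 for degradation, fell from 1173, 1303 and 1215 to 620, 712 and 539, a log2 fold change of -0.99 (adjusted p = 0.0340). Nfe2l2 itself read 6386, 11736 and 8613 at 0 Gy and 7598, 8608 and 7316 at 1 Gy (log2 fold change -0.14, adjusted p = 0.784). With the block Mafg, another small Maf, rose too (0.0302). Nqo2, a quinone reductase, was called lower with the block (0.0470), but it passed 100 on the mock arrays alone (134, 132 and 122 against 52.7, 55.8 and 13.3), and its log2 fold change of -1.93 became -0.37 with signals under 100 set to 100. The 15 genes had a median of -0.15, beside -0.11 for all genes.

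Selenoproteins matter here because thioredoxin reductases carry selenocysteine. Of 16 tested genes of that list none rose and 2 fell in limma without the block, where 8 had an unadjusted p under 0.05 and the methods' test counted 6 lower and 0 higher. Pstk, the kinase that acts on the transfer RNA for selenocysteine, fell from 317, 364 and 373 to 209, 190 and 222 (log2 fold change -0.76, adjusted p = 0.0453). Dio2, a selenium-dependent deiodinase, fell from 248 ± 36.5 to 115 ± 11.8 (-1.10, adjusted p = 0.0332). With the block Sephs1, Selenom and Selenop fell as well.

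Among the 3 ribonucleotide reductase genes, whose enzyme receives electrons from thioredoxin and glutaredoxin, 1 fell. In limma without the block 1 had an unadjusted p under 0.05, and the methods' test counted 0 higher and 1 lower. The p53-inducible small subunit Rrm2b read 2595, 3659 and 3733 at 0 Gy and 1050, 1135 and 1182 at 1 Gy, and all lines fell by more than 2-fold (limma adjusted p = 0.0217). Of 18 tested partners in other NADPH-linked and thiol reactions, 1 rose and 1 fell without the block. In that limma fit 5 had an unadjusted p under 0.05, and the methods' test counted 3 higher and 1 lower. Cyba, the p22-phox subunit of the membrane NADPH oxidase, rose from 11014, 6499 and 11077 to 29582, 20300 and 31074 (log2 fold change 1.52, adjusted p = 0.0462). Cybb, its catalytic partner, read 7605, 6035 and 2430 at 0 Gy and 28768, 19436 and 13244 at 1 Gy, and rose with the block, as did Iscu (Cybb 0.0834 without and 0.0122 with it). Both oxidase genes were higher in every line without overlap of the groups. Pdia4, a protein disulfide isomerase of the endoplasmic reticulum, fell from 1230 ± 171 to 694 ± 18.3 (-0.82, adjusted p = 0.0451).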

How the data were processed

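The authors deposited 1 linear intensity value per probe set of an Affymetrix whole-genome mouse array. MAS5 is the tool that the submitters' processing notes list, and the values are scaled to a trimmed mean of 500 per array. The background correction and quantile normalization that the study's methods describe are not in these values. The labels and the methods name different RNA amplification kits.

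From the signals, log2 values were taken (signals under 1 set to 1). Of 45037 probe sets without controls, 21762 that reached 100 on at least 1 array were tested with limma (version 3.58.1, R 4.3.3), 1 Gy against 0 Gy, with Benjamini-Hochberg adjustment over all of them and a call at an adjusted p under 0.05. Dose was the only factor, as in the study's methods. Each gene is given by its brightest probe set that has this gene alone in the platform annotation (34945 probe sets have 1 gene, 932 several, 9160 are not listed). The SD and n = 3 refer to cell lines, and the number of arrays limits the precision. The script was tested on simulated data.

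By the design text the replicate number marks the cell line. Deviations from the group means correlated at 0.671, 0.668 and 0.781 for arrays of the same number and at -0.495 to -0.053 for others, so that the numbers pair the arrays. A second fit therefore took the line as a block. Other alternatives were no filter or a stricter one, a common median, quantile normalization, an offset of 16 before the log2, signals under 100 set to 100, a trend in the variance prior, the test of the study's methods, the mean of a gene's probe sets, and leaving out arrays.

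The members and gene lists were chosen with earlier results of these data known. Genes named besides the members are up to 3 called genes per list with the largest change, Maff, Sqstm1 and Nfe2l2, and the 3 genes most like each called member. Those chosen otherwise are marked or belong to a family given whole (glutaredoxins, peroxiredoxins, sestrins), or are counterparts of a member (Txnrd2, Slc3a2). Gpx1, Gpx4, Sod1 and Sod2 were named after their values were seen.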

Additional observations from a re-analysis of the deposited data

Results flagged for a closer look

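The change of Gsr differed in direction between the cell lines by more than 1.5-fold on either side. Its brightest probe set read -1.38 in line 1 and -0.61 in line 2 on the log2 scale and 1.23 in line 3. The difference between the lines was not tested, since each line has 1 array per dose, and the second Gsr probe set did not show it, with 0.04, -2.72 and -0.15. Signals of Gsr were between 26.4 and 343 over both probe sets.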

How the results depend on the processing

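The log2 fold change of Glrx lay between -2.46 and -2.29 under 23 alternatives and that of Txnrd1 between 0.61 and 1.10. The Glrx call was lost with no filter on dim probe sets (adjusted p = 0.0692), where 1 probe set, 0 members and 0 listed genes were called against 975, 1 and 11. At an unadjusted p under 0.05 that fit held 5391 probe sets. With the replicate block 3974 probe sets and 42 listed genes were called, and no member's call changed. The methods' test gave 2850 probe sets, 2 members (Glrx and Txnrd1) and 30 listed genes at its own thresholds, and 352 and 2 after Benjamini-Hochberg adjustment, with Glrx still called. Scaling to a common median gave 640 and 5, signals under 100 set to 100 gave 1476 and 18, and a trend in the variance prior 1515 and 22. Over 55 other named genes (Sesn1, Sesn3, Gpx4, Sod1, Sod2 and the cell type markers not among them), all 14 that limma called without the block lost their call with no filter. Of these 14, 6 lost it with a common median and 1 with quantile normalization. None of the 55 changed direction under these settings.

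Leaving out arrays, with or without the block, gave 0 to 299 probe sets, 0 to 1 members and 0 to 2 listed genes, from fewer samples. The block without one line was chosen after seeing the data. With line 1 or 2 left out, the adjusted p of Glrx under the block was 0.0524 and 0.0509. With arrays left out the log2 fold change changed sign for Txn1 (-0.50 to 0.051), Txnip (-0.21 to 0.068), Gsr (-0.99 to 0.31), Nfe2l2 (-0.36 to 0.077) and Slc3a2 (-0.078 to 0.33), none of them called. The cause was not tested. Dim signals limit Srxn1, Slc7a11 and Gsr, and the irradiated signals of Mgst1, Gss and Nqo2, all below 100. Nxn, Ggt5 and Slc1a4 also lay below 100 on part of their arrays.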
